A study of Drosophila melanogaster with 48 samples.

Results

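The genes described here encode the proteins of the mitochondrial ribosome of Drosophila melanogaster. They were taken as every gene whose symbol begins with mRpL or mRpS and a number, together with bonsai, which gave 74 of the 16995 genes counted. By their symbols 47 belong to the large subunit and 27, bonsai included, to the small subunit. The data are 48 libraries of messenger RNA 3′ ends, each from the brain of an adult mated fly, in 16 groups of 3. The groups cross 2 strains (Tau-KO and w1118), both sexes and 4 conditions, which are an uninjured control and 1, 2 and 4 hr after a single strike of the whole body that gives a mild traumatic brain injury (TBI). After dissection every brain, controls included, was kept in medium under near-infrared light (NIR) for 2 hr. The RNA was taken after that exposure, so later than the times named. The light was of a kind used to inhibit cytochrome c oxidase, and no group without light is part of the comparisons. Tau-KO stands for loss of the microtubule-binding protein tau, and the allele is not given in the sources used here. The w1118 strain, which carries a white-eye mutation, is the strain it is set against here. Whether the stocks share a background is not given in the sources used here. Loss of tau therefore cannot be told apart from other differences between the stocks.

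The mitochondrial ribosome sits in the mitochondrial matrix and translates the few messenger RNAs of the mitochondrial genome, all of which encode subunits of the respiratory chain and the ATP synthase. Its ribosomal RNAs come from the mitochondrial genome, but each of its proteins is encoded in the nucleus, made in the cytosol and imported. Some of these proteins have counterparts in the bacterial ribosome and the rest are found in mitochondria only. As classed here, 45 of the 74 genes fall in the first class and 29 in the second. This puts mRpL55 in the first class, although its human counterpart is named as a protein found in mitochondria only. The human counterparts of mRpS30 and mRpS18A lie in the large subunit despite their names.

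The libraries held 39517 to 1668925 counts on genes, with a median of 582952. There were 2 libraries under 100000 counts, replicate 1 of the Tau-KO male controls with 39517 and replicate 3 of the w1118 males at 1 hr with 59781. For 16 libraries, 8 of each strain, no other library came closer than a chi-square of 4 per degree of freedom over genes, and these are called the libraries that stand apart. Over pairs of libraries the median of this chi-square was 12.13 within groups (48 pairs) and 10.969 between groups (1080 pairs). The lowest value was 1.989 within groups and 1.364 over all pairs. By these values, which take in the libraries that stand apart, libraries of one group were no closer to each other than to those of other groups. The label checks did not separate the groups. Libraries labelled Tau-KO held tau at 90.9 to 256 CPM (counts scaled to a common library total) and those labelled w1118 at 54.9 to 212 CPM, which checks the label only if the deletion takes in the 3′ end of the gene. Libraries labelled female held roX1, an RNA of the male dosage compensation complex, at a median of 937 CPM, and those labelled male at 962 CPM, with overlapping ranges. Strain and sex names below are therefore those of the labels, and each direction between sexes or strains rests on them. Neuronal elav was present in all libraries (102 to 506 CPM), and neuronal nSyb ran from 71.7 to 943 CPM. The lowest nSyb was in replicate 2 of the w1118 females at 2 hr, which also held the lowest elav and tau. In such bulk samples fewer cells of a type and less RNA per cell cannot be told apart.

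The level of the 74 genes differed over a wide range (the plot of levels by gene). Since 1 fragment is counted per transcript end, CPM was compared between genes without dividing by length. The highest mean over the 48 libraries belonged to mRpL49, a large-subunit protein found in mitochondria only, at 189 ± 55.6 normalized CPM (SD). It was followed by mRpL52 at 169 ± 43.7 CPM and mRpL34 at 154 ± 39.1 CPM, all of the large subunit, and then by the small-subunit genes mRpS14 at 92.8 ± 32.9 CPM and mRpS7 at 91.6 ± 27.2 CPM. Within this order the ranges over libraries of the first 3 overlapped one another, as did those of mRpS14 and mRpS7. The first 3 genes held 20.2% of the summed level and the first 10 held 43%.

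At the other end mRpL53 had no count in any library. The next lowest were mRpS9 with 6 counts in all at a mean of 0.144 CPM, mRpS24 with 15 counts at 0.343 CPM, mRpL10 with 56 counts at 1.22 CPM and mRpS23 with 37 counts at 1.26 CPM. The last 3 of these were detected in 4, 19 and 13 libraries. A mean under 10 CPM was found for 18 genes and over 50 CPM for 17, and 15 genes had at least 1 count in all 48 libraries. Median levels were 17.6 CPM over the large-subunit genes and 24.6 CPM over the small-subunit genes. They were 24.6 CPM over genes classed with a bacterial counterpart, mRpL55 included, and 15.5 CPM over those classed as found in mitochondria only. The ranges of these classes overlapped.

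**Figure D1:**
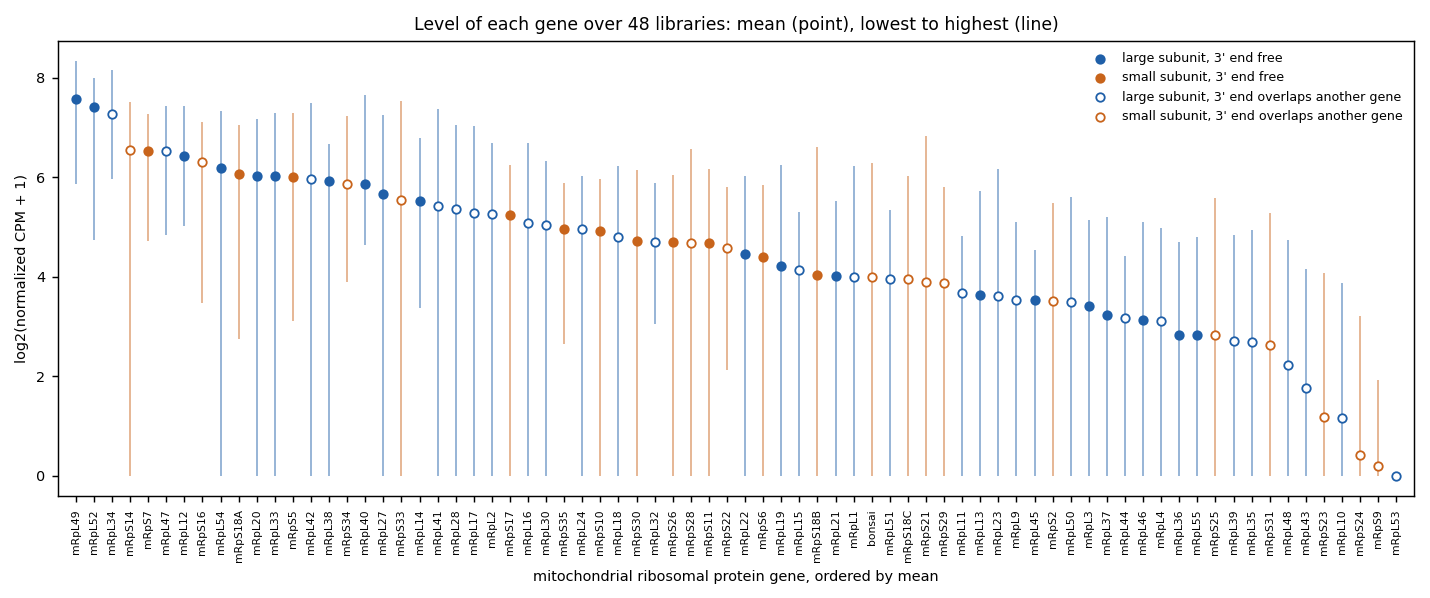
Level of the 74 genes, ordered by mean (x axis), as log2(normalized CPM + 1) (y axis). Points are means over 48 libraries, lines run from the lowest to the highest library, colour gives the subunit and open points mark genes whose last 300 bases overlap an exon of another gene. The 10 lowest genes are all open points, and mRpL53 lies at 0.

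The low levels went together with the position of the 3′ end. In the BDGP6 annotation the last 300 bases of 43 of the 74 genes (58.1%) overlapped an exon of another gene, 42 of them on the opposite strand, and 27.2% of 13986 protein-coding genes did so. The median level was 14.5 CPM for the 43 genes with such an overlap and 29.2 CPM for the 31 without. All of the 10 lowest genes overlapped a neighbour, and 4 of the 10 highest did. The counting program sets aside reads that fall on more than 1 gene, and the strand setting it ran with is not given in the sources used here. The part of such reads in the low levels was not tested. The genes lie on all large chromosome arms, 12 on 2L, 13 on 2R, 17 on 3L, 21 on 3R and 11 on X, with medians of 12.9, 36.6, 20.1, 14.5 and 32.7 CPM in the same order.

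The sum over the 74 genes ran from 1606 to 3134 CPM per library and moved with depth. The 2 libraries under 100000 counts held 1606 and 1771 CPM. The median was 2346 CPM in 19 libraries of 100000 to 500000 counts, 2572 CPM in 19 libraries of 500000 to 1000000 counts and 2839 CPM in 8 libraries of over 1000000 counts, which ranged from 2711 to 3134 CPM. Without the libraries that stand apart the medians of the middle classes were 2346 and 2503 CPM (15 and 14 libraries). Over the same 4 classes the median of elav was 345, 304, 249 and 138 CPM, in the opposite direction. The sum averaged 2495 ± 313 CPM in Tau-KO and 2505 ± 301 CPM in w1118 brains (SD, n = 24 each), and 2521 ± 252 CPM in female and 2478 ± 353 CPM in male brains (SD, n = 24 each). The large-subunit genes held between 1.00 and 2.84 times the counts of the small-subunit genes, lowest in the library of 39517 counts, with class medians of 1.33, 1.87, 2.09 and 2.30 from the shallowest libraries to the deepest.

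**Figure D2:**
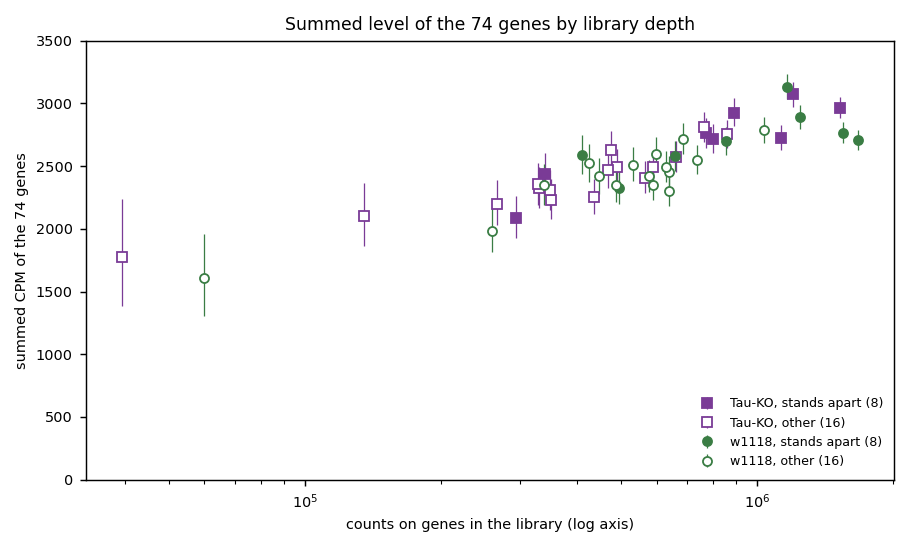
Summed CPM of the 74 genes (y axis, from 0) against counts on genes in the library (x axis, log scale), 1 point per library. Squares are Tau-KO and circles w1118, and filled points are the 16 libraries that stand apart. Bars are exact 95% binomial intervals of the share of library counts on these genes, which cover counting error only. The sum lies at 1606 to 1771 CPM in the 2 shallowest libraries and at 2711 to 3134 CPM in the 8 deepest.

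Counts of single genes also differed between replicates by more than sampling. A filter on low counts over the 48 libraries kept 62 of the 74 genes (61 in the fit of w1118, 54 in that of Tau-KO). Within groups the median chi-square of these 62 genes was 3.77 per degree of freedom over 48 libraries, with 59 genes over 2. Over the 32 other libraries it was 1.37, with 7 genes over 2. This rests on 16 degrees of freedom against 32, since groups left with 1 library drop out. The libraries that stand apart were chosen by a chi-square over all genes, these included. A fall on leaving them out therefore follows in part from that choice. The biological coefficient of variation estimated by edgeR had a median of 0.438 over the tested genes in Tau-KO and 0.491 in w1118, against 0.387 and 0.455 over all genes in the same order and 0.249 and 0.284 over 78 cytosolic ribosomal protein genes. The set also lay lower than all genes, with median log2 CPM of 5.23 against 5.67 in Tau-KO and 4.95 against 5.41 in w1118. Relative to the trend that edgeR fitted by level, the median dispersion was 0.917 against 0.854 in Tau-KO and 0.842 against 0.830 in w1118.

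Levels of the genes moved together over libraries. The same measure was not taken for other genes, and the part of depth in it was not tested. The first principal component of log2(normalized CPM + 5) over the 62 genes held 38.6% of their variance, and 7.23% lay on the next. Its largest weights were on mRpS33, mRpL2, mRpL1, mRpS28 and mRpL22, and its lowest on mRpS5, mRpS34, mRpS18A, mRpL40 and mRpL52. Of the 16 libraries that stand apart, 14 scored 2.49 to 6.41 on it and so lay above all 32 others, whose highest was 2.31. The remaining pair, replicate 2 of the Tau-KO female controls and replicate 2 of the Tau-KO males at 4 hr, scored −7.16 and −6.01, and the lowest scores were those of the libraries with 39517 and 59781 counts (−11.0 and −9.66). For mRpS33 the median was 72.6 CPM in the libraries that stand apart and 29.5 CPM in the others, and for mRpS28 it was 43.5 and 12.1 CPM. For mRpS5, a small-subunit protein with a bacterial counterpart, the order was turned round, with 26.5 CPM in the libraries that stand apart (7.61 to 156 CPM) and 73.9 CPM in the others (49.6 to 153 CPM). The libraries that stand apart were found from all genes, so these values are a description.

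**Figure D3:**
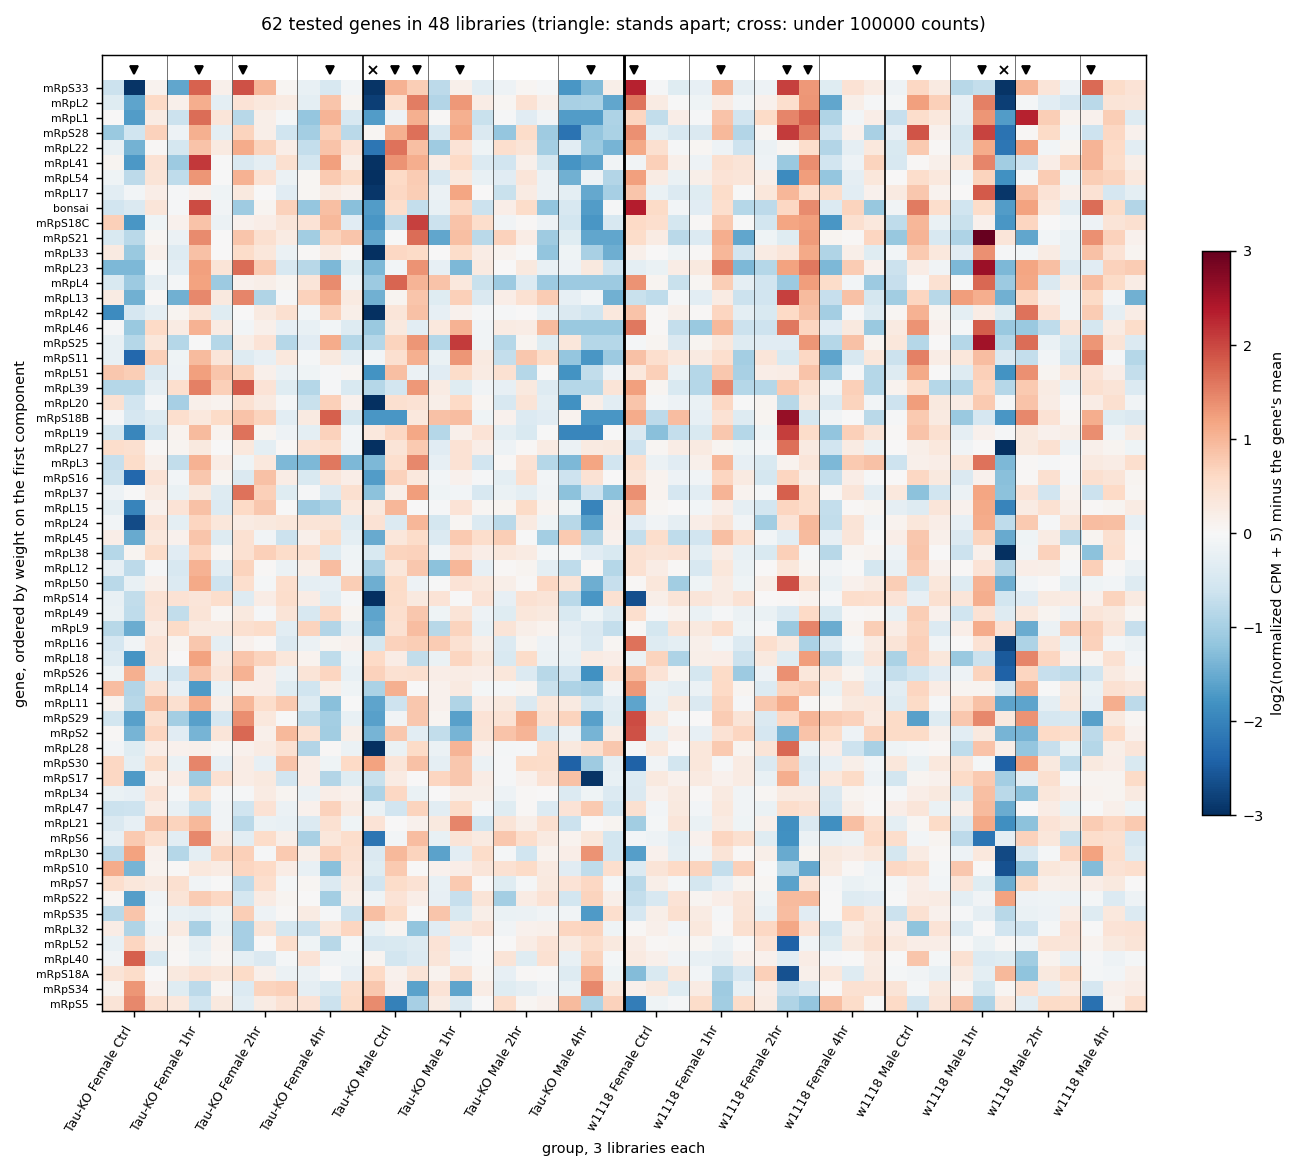
Deviation of log2(normalized CPM + 5) from the mean of each gene (colour, limited to ±3) for the 62 tested genes (rows, ordered by weight on the first component) in 48 libraries (columns, 3 per group). Triangles mark the 16 libraries that stand apart and crosses the 2 under 100000 counts. Single columns stand out within groups, and those with triangles are mostly red at the top and blue at the bottom.

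The effect of injury was tested within each strain and sex at each time. A gene is called where the edgeR quasi-likelihood p was under 0.05 and the log2 fold change over 1 in size, the limits the study used in its plots, and p-values adjusted over all genes are given beside. After adjustment over all genes, 0 members of the set stayed under 0.05 in each of these 12 comparisons, by edgeR and by DESeq2. Called or not, 0 to 4 tested genes of the set lay above all controls in every injured brain, depending on the comparison. Below all controls lay 0 to 5 genes. The same was not counted over all genes, so a lack of overlap is given as a description only.

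In Tau-KO females 6 of 54 tested genes were called at 1 or more times (11.1%), where 7.46% of all 5015 tested genes were. At 2 hr mRpL19, mRpL23, mRpL42 and mRpS33 were higher and mRpL40 lower in injured brains (background 4.03%, 1.48% higher and 2.55% lower). At 1 hr mRpL19 was higher and mRpL14 lower (4.11%, 2.07% higher and 2.03% lower), and at 4 hr mRpL42 was higher (2.21%, 0.578% higher). The median log2 fold change of the 54 genes was 0.45, 0.25 and 0.03 at 1, 2 and 4 hr, that of all genes 0.03, 0.01 and 0.02, and that of 78 cytosolic ribosomal protein genes 0.23, 0.26 and 0.13.

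The large-subunit gene mRpL19, which has a bacterial counterpart, was at 8.41, 0 and 7.70 CPM in control Tau-KO females, at 15.9, 32.1 and 15.8 CPM at 1 hr, at 54.2, 15.4 and 12.4 CPM at 2 hr and at 10.8, 26.3 and 13.1 CPM at 4 hr. Each injured brain lay above each control. The log2 fold change was 1.89 ± 0.86 (SE) at 1 hr (edgeR adjusted p = 0.789) and 2.20 ± 0.86 at 2 hr (adjusted p = 0.72). Both rest on single libraries. At 1 hr the call was lost on removing replicate 2 (1.45) or 3 (2.26) of the controls, or replicate 2 of the injured brains (1.38). At 2 hr it was lost on removing replicate 2 of the controls (1.77) or replicate 1 of the injured brains (1.23). Without the libraries that stand apart the log2 fold changes were 0.96 and 0.82 and neither was called.

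The other called gene with no overlap was mRpL42, a large-subunit protein found in mitochondria only. It was at 11.2, 37.3 and 44.9 CPM in the controls, at 58.1, 72.9 and 41.5 CPM at 1 hr, at 55.5, 67.4 and 78.7 CPM at 2 hr and at 51.7, 93.3 and 62.1 CPM at 4 hr, so that at 2 and 4 hr each injured brain lay above each control. The log2 fold change was 1.06 ± 0.49 at 2 hr (edgeR adjusted p = 0.72) and 1.12 ± 0.49 at 4 hr (adjusted p = 0.976). With replicate 1 of the controls removed these were 0.69 and 0.75 and not called. The call at 2 hr was also lost on removing replicate 2 (1.05) or 3 (0.94) of its injured brains, and that at 4 hr on removing its replicate 2 (0.83). On removing the libraries that stand apart mRpL42 stayed called at 2 hr, and its change at 4 hr was 0.83. The other called genes overlapped the controls, with log2 fold changes from −1.13 for mRpL14 at 1 hr to 2.4 for mRpL23 at 2 hr. The count of 6 genes became 3 on removing replicate 1 of the controls, 2 on removing replicate 2 of the controls, 3 on removing either replicate 1 or 2 at 2 hr, and 2 on removing the libraries that stand apart.

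In Tau-KO males the largest number of calls was at 4 hr, when 13 of 54 genes were called, all lower in injured brains (24.1%, where 18.6% of all genes were called and 11.7% called lower). These were mRpL1, mRpL2, mRpL14, mRpL17, mRpL19, mRpL22, mRpL33, mRpL41, mRpS11, mRpS18C, mRpS21, mRpS28 and mRpS30. At 2 hr mRpS28 was called lower (background 5.48%, 2.37% lower) and at 1 hr no gene was called (3.21%, 0 genes at an unadjusted p under 0.05 and 0 adjusted by DESeq2). Over the 3 times 13 genes were called, where 21.2% of all genes were. The median log2 fold change of the 54 genes was −0.27, −0.42 and −0.89 at 1, 2 and 4 hr, with 45 of 54 genes below 0 at 4 hr, while the median of all genes was 0.02, 0.01 and −0.02. The cytosolic ribosomal protein genes had a median of −0.50 at 4 hr with 17 of 78 called lower and 1 higher.

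The lowest p belonged to the small-subunit gene mRpS28. It was at 19.1, 43.8 and 67.5 CPM in control Tau-KO males, at 11.5, 46.9 and 12.1 CPM at 1 hr, at 5.33, 28.9 and 6.03 CPM at 2 hr and at 0, 5.28 and 6.99 CPM at 4 hr. No brain at 4 hr reached the lowest control, and the log2 fold change was −3.35 ± 1.01 (edgeR adjusted p = 0.0942). The values at 4 hr rest on 0, 2 and 2 counts, and the lowest control on 1 count. For mRpS11, a small-subunit protein with a bacterial counterpart, the 4 hr brains held 6.5, 2.64 and 6.99 CPM and the controls 19.1, 30.8 and 48.1 CPM (−2.84 ± 0.91, edgeR adjusted p = 0.102). For mRpS30 they held 0, 7.91 and 17.5 CPM at 4 hr and 57.4, 29.6 and 44.4 CPM in controls (−2.09 ± 0.74, edgeR adjusted p = 0.118). For mRpL19, the gene called higher in Tau-KO females, they held 0, 0 and 14 CPM at 4 hr and 19.1, 24.9 and 37.9 CPM in controls (−2.56 ± 0.99, edgeR adjusted p = 0.134). At 4 hr mRpS11 rests on 1, 1 and 2 counts, mRpS30 on 0, 3 and 5 and mRpL19 on 0, 0 and 4. Their values in control replicate 1 rest on 1, 3 and 1 counts in the same order. The call of mRpL19 was lost on removing replicate 3 of the controls (−2.22) or replicate 2 at 4 hr (−1.81). The other 3 genes stayed called whichever 1 library was removed. The remaining 9 called genes overlapped the controls, mostly through control replicate 1, in which 8 of them had no count, and their log2 fold changes ran from −3.88 for mRpS21 to −1.21 for mRpL14.

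**Figure D4:**
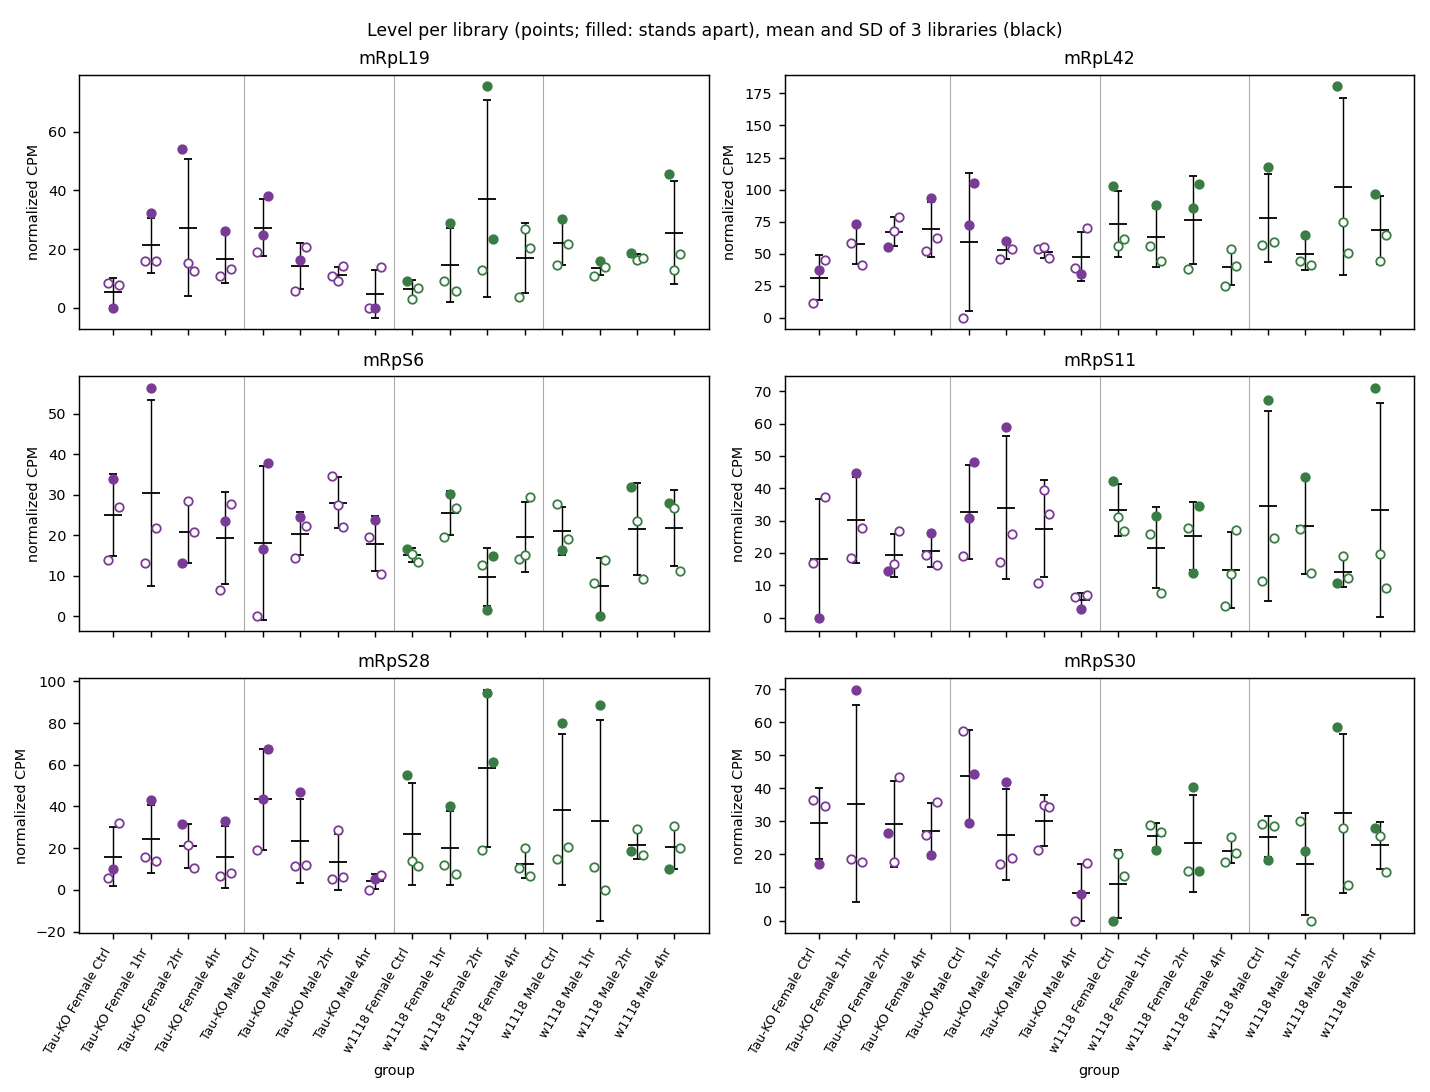
Normalized CPM (y axis) of the 6 genes that were called with no overlap between injured and control libraries, in each of the 16 groups (x axis). Points are libraries, filled where the library stands apart, and black marks give mean and SD of 3 libraries. At 4 hr in Tau-KO males mRpS11 lies at 2.64 to 6.99 CPM (1, 1 and 2 counts), below its controls at 19.1 to 48.1 CPM. The lowest of these controls rests on 1 count. Filled points are often the highest of their group.

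The control group of this comparison holds no library that is both deep and close to the rest. The brains at 4 hr held 134970, 340255 and 265717 counts. Control replicate 1 is the library of 39517 counts, and control replicates 2 and 3, with 891279 and 1198452 counts, stand apart, as does replicate 2 at 4 hr. Depth thus moves with the result. Without control replicate 1 the fit called 19 of 56 genes at 4 hr, 18 of them lower (25.2% of all genes called, 14.3% lower), and 7 reached an adjusted p under 0.05, as did 10.9% of all genes. Those 7 were mRpL2, mRpL4, mRpL17, mRpL22, mRpS11 and mRpS28, which were lower, and mRpS5, which was higher (log2 fold change 2.04 ± 0.60, edgeR adjusted p = 0.0356). At 4 hr mRpS5 was at 110, 26.4 and 90.8 CPM, and in the 3 controls, the shallow one first, at 153, 9.47 and 25 CPM. The gene mRpL4 had 0 counts in the 3 brains at 4 hr and 44 in controls 2 and 3, and was at least 6.24-fold lower on a floor of 3 counts over the group. The comparison could not be repeated in a useful way without the libraries that stand apart, because that leaves control replicate 1 alone, in which 29 of the 74 genes had a count. The lone control is then assumed to vary like the other groups. None of the 13 genes was called in that fit, and the fitted changes of mRpS28, mRpS11, mRpS30 and mRpL19 were −2.07, −1.49, −2.37 and −1.13. The 4 genes it called at 4 hr, mRpL27, mRpL28, mRpL42 and mRpS14, had 0 counts in that control, so they could only be higher, and the median of the set (0.70, against 0.35 over all genes) rests on the same library. The neuron markers moved as well, as all 5 listed genes together held 2155 to 2420 CPM at 4 hr and 1361 to 1663 CPM in controls. The 4 glial markers held 1585 to 1787 CPM and 1150 to 1472 CPM, with no marker at 0 in a whole group. Of these, repo alone was at 25.3, 0 and 0 CPM in the 3 controls, the shallow one first, and at 14.8, 0 and 15.1 CPM at 4 hr. The part of depth, of the libraries that stand apart and of cell makeup in these calls was not tested.

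In w1118 females 4 of 61 genes were called (6.56%), where 6.24% of all 5477 genes were. All 4 were higher at 2 hr, which were mRpL13, mRpL19, mRpL50 and mRpS22 (background 5.4%, 3.45% higher and 1.95% lower). No gene was called at 1 hr, where 0.749% of all genes were (0.219% up, 0.529% down), or at 4 hr, where 1.15% were (0.201% up, 0.949% down). In either, 0 genes of the set had an unadjusted p under 0.05 by edgeR, and 0 were significant after adjustment by DESeq2. For mRpL19 the controls held 9.17, 3.10 and 6.66 CPM, the 1 hr brains 9.09, 29 and 5.74 CPM, the 2 hr brains 12.7, 75.5 and 23.3 CPM and the 4 hr brains 3.53, 26.8 and 20.4 CPM. At 2 hr it was higher in 3 of 3 brains with no overlap (log2 fold change 2.60 ± 0.78, edgeR adjusted p = 0.505). The call was lost on removing replicate 2 at 2 hr (1.53) and on removing the libraries that stand apart (1.37), which leaves 1 brain at 2 hr, assumed to vary like the other groups. The other 3 genes overlapped the controls, with log2 fold changes of 1.03 for mRpS22 to 2.39 for mRpL13. At 2 hr replicates 2 and 3 stand apart, and the summed fat body markers Yp1, Yp2 and Fbp1 ran from 2257 to 18224 CPM at 2 hr and from 776 to 2559 CPM in controls, with Fbp1 at 0 in both. The 4 photoreceptor markers held 3730 to 26157 CPM at 2 hr and 2134 to 7083 CPM in controls. The 5 neuron markers held 987 to 2144 CPM at 2 hr and 1793 to 1997 CPM in controls, with medians of 1494 and 1983 CPM. The 4 muscle markers held 195 to 3055 CPM at 2 hr and 3098 to 3879 CPM in controls, with medians of 3009 and 3103 CPM. The 5 gut markers held 59.7 to 848 CPM at 2 hr, with betaTry at 0, and 891 to 7214 CPM in controls, with medians of 620 and 923 CPM. Neither the muscle nor the gut list overlapped, but single libraries held the extremes. Replicate 2 at 2 hr had the muscle gene Mhc at 16.2 CPM and the neuron gene nSyb at 71.7 CPM. Replicate 1 of the controls had the gut gene alphaTry at 1307 CPM. The part of these markers and libraries in the calls was not tested. The count of 4 genes became 0 on removing replicate 2 at 2 hr and 7 on removing replicate 1 at 2 hr. It became 2 on removing replicate 2 of the controls, replicate 1 or 3 at 1 hr, or replicate 1 or 3 at 4 hr. With the libraries that stand apart removed 3 genes were called, and none of them at 2 hr.

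In w1118 males 1 of 61 genes was called (1.64%), where 2.85% of all genes were. It was mRpS6, a small-subunit protein with a bacterial counterpart, which was lower at 1 hr (background 1.7%, 1.02% higher and 0.676% lower) with 8.24, 0 and 13.8 CPM in injured brains and 27.6, 16.4 and 19.1 CPM in controls (log2 fold change −2.35 ± 1.03, edgeR adjusted p = 1.00). The value of 13.8 CPM rests on 1 count in the library of 59781 counts. The call was lost on removing replicate 2 at 1 hr (−1.10), replicate 1 of the controls (−2.10) or the libraries that stand apart (−1.30). No gene was called at 2 hr, where 0.913% of all genes were (0.493% up, 0.42% down), or at 4 hr, where 0.621% were (0.383% up, 0.237% down), with 0 genes of the set at an unadjusted p under 0.05 by edgeR and 0 after adjustment by DESeq2. The count became 6 on removing replicate 1 at 1 hr and 4, 3 or 2 on removing replicate 1, 2 or 3 of the controls. It became 3 on removing replicate 1 at 4 hr or the libraries that stand apart, and 2 on removing replicate 2 or 3 at 1 hr, replicate 1 or 3 at 2 hr, or replicate 3 at 4 hr. Median log2 fold changes over the set were −0.06, 0.19 and −0.24 in w1118 females and −0.06, −0.03 and 0.01 in w1118 males at 1, 2 and 4 hr, while medians of all genes lay between −0.02 and 0.03.

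**Figure D5:**
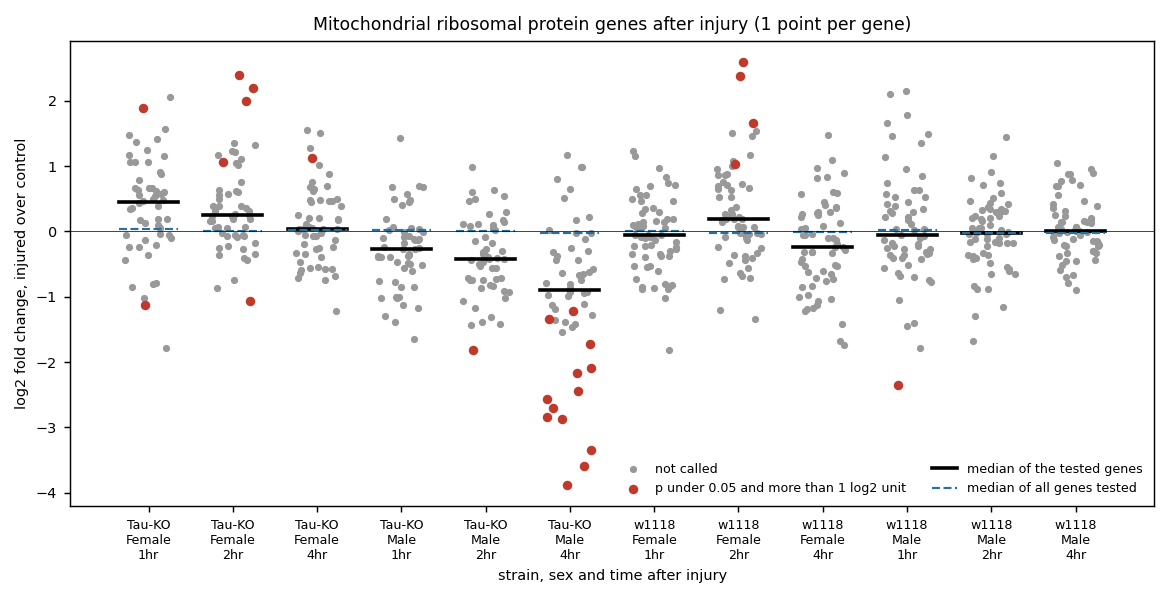
Log2 fold change of injured over control brains (y axis) for each tested gene in the 12 comparisons (x axis), with 54 genes in Tau-KO and 61 in w1118. Red points are called, black bars are medians of the set and blue dashes medians of all genes tested. The set lies lowest in Tau-KO males at 4 hr (median −0.89, 13 genes called lower), a comparison whose 3 controls are either under 100000 counts or stand apart.

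Whether the response to injury, averaged over the 3 times, differed between the sexes was tested as a difference of differences. In Tau-KO 12 of 54 genes were called, with 10 higher and 2 lower in females (22.2%, where 18.4% of all genes were called, 9.99% higher and 8.39% lower). The lowest adjusted p was 0.13. The largest difference was that of mRpL19, at 3.53 ± 1.01 on the log2 scale (edgeR adjusted p = 0.13), from a response of 1.87 ± 0.77 in females and −1.67 ± 0.65 in males. The others higher in females were mRpL2, mRpL22, mRpL41, mRpL42, mRpL54, mRpS18C, mRpS21, mRpS28 and mRpS33, with differences from 1.37 to 3.26, and mRpL40 and mRpS5 were lower at −1.44 and −1.71. In w1118 mRpL19 alone was called (1.64% of genes in the set and 1.64% of all genes), at 2.06 ± 0.89 (edgeR adjusted p = 1.00), from 1.77 ± 0.70 in females and −0.30 ± 0.58 in males. The female controls of both strains held mRpL19 at 0 to 9.17 CPM and the male controls at 14.6 to 37.9 CPM, without overlap, and no other gene was called in both strains. In w1118 0 genes were called on removing replicate 2 of each group and 2 on removing replicate 1 of each. Without the libraries that stand apart no gene was called in w1118, and in Tau-KO the male response then rests on the lone control of 39517 counts, so that the 7 genes called there say nothing of a direction.

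Averaged over the 4 conditions, no gene differed between females and males at an adjusted p under 0.05 in Tau-KO (0 of 54) or in w1118 (0 of 61), by edgeR or DESeq2. No gene of the set had an unadjusted p under 0.05 in either strain, where 2.57% of all genes had one in Tau-KO and 1.57% in w1118. The medians of the female minus male log2 difference were 0.10 in Tau-KO and −0.11 in w1118, and those of all genes 0.04 and −0.0036.

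Between Tau-KO and w1118, averaged over sexes and conditions, 0 of 62 genes passed an adjusted p of 0.05 by edgeR or DESeq2, as did 0% of all 5821 genes. At an unadjusted p under 0.05 there were 6 genes, with mRpL1, mRpL4, mRpL14, mRpL17 and mRpS29 lower and mRpS6 higher in Tau-KO, where 7.30% of all genes had such a p. One of them, mRpL4, exceeded 1 log2 unit, at −1.03 ± 0.51 (edgeR adjusted p = 0.684, background of such calls 1.49%). The median over the set was −0.13, with 44 of 62 genes below 0, and −0.03 over all genes. The strain difference was called for 7 genes in injured males (11.3%, background 5.15%), all lower in Tau-KO, for 1 gene in injured females (0.928%), for 3 in uninjured females (4.28%) and for none in uninjured males (2.87%, 0 genes at an unadjusted p under 0.05, and 0 adjusted by DESeq2). The 7 were mRpL1, mRpL4, mRpL22, mRpL23, mRpL37, mRpS21 and mRpS28, and the injured Tau-KO males include the 3 libraries of 134970 to 340255 counts. With the libraries that stand apart removed no gene was called in injured males. The response to injury did not reach a call for any gene when Tau-KO was set against w1118 (0 of 62, 0 at an unadjusted p under 0.05, background 1.89%), and DESeq2 called 1. Leaving out replicate 1 of each group gave 1 call, replicate 2 gave 2 and replicate 3 gave 2, and leaving out the libraries that stand apart gave 4, which rest on the lone Tau-KO male control of 39517 counts.

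The study names 6 genes of this set. Of these, mRpL43, mRpL35 and mRpS25 lay below the filter within both strains, with 100, 185 and 237 counts over all libraries and means of 2.4, 5.49 and 6.10 CPM. Counts of mRpL43 were found in 25 of 48 libraries. In a fit without the filter mRpL35 met the limits of a call in w1118 males at 2 hr (log2 fold change 2.92 ± 1.29, edgeR adjusted p = 1.00) and at 4 hr (2.61 ± 1.28, edgeR adjusted p = 1.00). These rest on 10, 6 and 3 counts at 2 hr, 2, 10 and 8 counts at 4 hr and 0, 3 and 1 counts in controls. In the same kind of fit mRpL43 met them in w1118 females at 4 hr, with 0 counts in the 3 injured brains and 4, 2 and 2 in controls, and mRpL46 in Tau-KO males at 4 hr, with 0 counts in the 3 injured brains and 0, 7 and 4 in controls. The gene mRpL46 passed the filter in w1118 with a mean of 7.72 CPM over all libraries, and was not called there at any time. The other 2, mRpL1 and mRpS21, averaged 14.9 and 13.9 CPM, were each called lower in Tau-KO males at 4 hr as above (−3.58 ± 1.46 and −3.88 ± 1.5) and were called in no other comparison of injured and control brains. In w1118 females mRpL1 was at 20.2, 4.65 and 13.3 CPM in controls and at 10.6, 23.9 and 5.74 CPM, 19.1, 39.6 and 49.4 CPM and 3.53, 10.1 and 13.6 CPM at 1, 2 and 4 hr. In w1118 males mRpS21 was at 2.75, 113 and 13.8 CPM at 1 hr, where 1 library that stands apart held 135 counts and the others 1 each, and at 1.62, 24.6 and 5.46 CPM in controls. The gene bonsai, named for the small growth of its mutants, averaged 14.9 ± 15.4 CPM with a range of 0 to 77.1 CPM and was not called in any of the 12 comparisons. In w1118 females it was at 7.57, 17.6 and 3.83 CPM at 1 hr and at 77.1, 18.6 and 9.99 CPM in controls, which hold its highest level.

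Other nuclear genes of mitochondrial gene expression were mostly below the filter. Of 5 other proteins of the ribosome or its assembly 2 were tested in each strain, of 12 listed translation factors 4 were tested in Tau-KO and 3 in w1118, of 17 mitochondrial aminoacyl-tRNA synthetases 4 in each strain, and of 19 genes for mitochondrial DNA and RNA maintenance 5 in Tau-KO and 6 in w1118. In the 12 comparisons of injured and control brains no translation factor or maintenance gene was called. Among the synthetases, which charge tRNAs for the mitochondrial ribosome, AlaRS-m and IleRS-m were called lower in Tau-KO males at 4 hr at −2.73 ± 0.87 (edgeR adjusted p = 0.102) and −3.07 ± 1.13 (edgeR adjusted p = 0.123), and LeuRS-m in Tau-KO females at 4 hr at −1.85 ± 0.78 (edgeR adjusted p = 0.976). In those males LeuRS-m was at 0.96 ± 0.83 and PheRS-m at −0.92 ± 0.34, neither called. With no fold limit, 23.3% of all genes had an unadjusted edgeR p under 0.05 in those males. The share was 3.27% in those females. The controls of those males are all under 100000 counts or stand apart. The small-subunit gene tko, whose symbol keeps it out of the set, was not called, with −0.17 ± 0.34 in Tau-KO females at 2 hr and 0.18 ± 0.36 in Tau-KO males at 4 hr. The messenger RNAs of the mitochondrial genome were not analysed here.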

How the data were processed

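Single brains were profiled by QuantSeq 3′ messenger RNA sequencing. The deposited values were whole-number counts of reads per gene made by the authors with STAR 2.4 and HTSeq on build dm3 after CASAVA 1.8.2, with no normalization. The deposited tables of the authors' own edgeR 3.22.3 comparisons (fold changes, p-values) were not used. In all, 5 rows that name no gene were left out, 23.1% to 52.8% of counted reads. Counts were analysed with edgeR 4.0.16 in R 4.3.3 (TMM scaling, filterByExpr, quasi-likelihood F-test, Benjamini-Hochberg adjustment), within each strain, or over 48 libraries between strains. Normalized CPM uses the 48-library TMM factors. SE is the log2 fold change over the root of F. DESeq2 1.42.0 was an alternative, and scripts were tested on simulated data. Gene ends came from a BDGP6 annotation. The members and lists were chosen with earlier results of these data known. Named genes were those called without overlap after injury, the 5 highest and 5 lowest levels, the 6 the study names, and bonsai. Same-numbered replicates shared deviations (each correlation over 0.1) only in w1118 males at 1 hr, where a replicate block left the call of mRpS6. The study calls its replicates biological, and the labels do not say which flies shared a culture, so p-values measure the spread between these brains. Intervals cover counting error only.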

Additional observations from a re-analysis of the deposited data

Results flagged for a closer look

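The response to injury of 13 results differed between females and males by the test of the difference itself (edgeR, p under 0.05 and over 1 log2 unit, averaged over 3 times), and none passed adjustment over all genes. In Tau-KO these were 22.2% of the set, where 18.4% of all genes met the same limits, and in w1118 1.64% of both. All 3 Tau-KO male controls are either under 100000 counts or stand apart. In Tau-KO the female minus male differences were 3.53 for mRpL19, 3.26 for mRpS21, 2.79 for mRpL22, 2.45 for mRpS33, 2.33 for mRpS28, 2.24 for mRpS18C, 2.12 for mRpL41, 1.74 for mRpL2, 1.59 for mRpL42, 1.37 for mRpL54, −1.44 for mRpL40 and −1.71 for mRpS5. In w1118 the difference was 2.06 for mRpL19. No difference in response between strains met the same limits.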

How the results depend on the processing

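The alternatives were DESeq2 size factors, no filter on low counts, a replicate block, DESeq2, leaving out the 2 libraries under 100000 counts or 1 library (or replicate number) at a time, and, chosen after seeing the data, leaving out the 16 libraries that stand apart. Genes called after injury in Tau-KO females numbered 6 in the main analysis, 3 with the replicate block and 2 without the libraries that stand apart, and 2 to 9 leaving out 1 library. In Tau-KO males the 13 stayed between 9 and 19 under every alternative run, but without the libraries that stand apart, where it was 9, none of the 13 was called at 4 hr. At an adjusted p under 0.05 the count in Tau-KO males was 4 with no filter and 7 without the shallow libraries, and 0 under the other alternatives. In w1118 females the 4 became 1 with the replicate block and 0 to 7 leaving out 1 library. In w1118 males the 1 became 6 with no filter, 2 without the shallow libraries, 3 without the libraries that stand apart and 1 to 6 leaving out 1 library. The sex difference in response in w1118 (1 gene) became 0 with the block, 0 without the libraries that stand apart and 0 to 2 leaving out a replicate number. In Tau-KO (12 genes) it became 7 without the libraries that stand apart. The strain difference in response (0 genes) became 2 with no filter, 1 with DESeq2, 1 without the shallow libraries, 4 without the libraries that stand apart and 1 to 2 leaving out a replicate number. The cause was not tested. Counts at an adjusted p under 0.05 between the sexes and between the strains stayed at 0. The 10 changes of the 6 named genes after injury kept their direction under each alternative run, and the replicate block ended 1 call, mRpL19 in Tau-KO females at 1 hr (1.8), with no other of these 10 calls changed. Without the libraries that stand apart the Tau-KO male control is 1 library of 39517 counts, in which 29 of 74 genes had a count, so the Tau-KO male values of that alternative, including medians over the set of 1.07 and 0.91 at 1 and 2 hr, and the 7 and 4 genes above rest on that library and give no direction. Depth limits the lower part of the set, where 12 of 74 genes fell below the filter over 48 libraries.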
